A study of Mus musculus with 3 samples.

Results

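Endothelial cells chosen by genes of the larger liver vessels were described in 3 single-cell libraries of paracetamol-injured mouse liver. A barcode is the RNA caught in 1 droplet, and UMIs (unique molecular identifiers) count its captured transcripts. A barcode was called venous, short for venous and other vessel endothelium, if it held at least 2 UMIs of Pecam1 and Cdh5 together. It also had to hold transcripts of at least 2 of the genes Rspo3, Selp and Vwf, and none of Ptprc, Clec4f or C1qb, which mark blood cells and Kupffer cells. The rule was applied to the 30684 barcodes left by filters of 200 genes and 500 UMIs as lower limits and 20% mitochondrial UMIs as the upper one, and 215 met it. They were 19 of 10437 in the PBS library, 31 of 10203 in the native MSC library and 165 of 10044 in the engineered MSC library. Because the barcodes were chosen by their counts of these 8 genes, the levels of those genes are given as a description and were not tested.

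Mice received 500 mg/kg of APAP (paracetamol, acetaminophen), and 6 hours later an injection of PBS (the buffer control), of native MSCs (mesenchymal stromal cells) or of MSCs engineered with bispecific polyvalent peptides. Livers were taken after 4 days, from 1 mouse per group, so APAP was common to all 3 groups and there was no liver without it. Strain, sex and age are not given in the sources used here. Values between livers therefore have no spread between animals and no test, and their 95% intervals (exact binomial for shares, exact Poisson for levels, exact conditional binomial for ratios) cover counting error only.

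Blood reaches the liver sinusoids through portal veins and hepatic arteries and leaves by the central veins. The endothelium of the central vein makes Wnt ligands (Wnt2, Wnt9b) and R-spondin 3, the product of Rspo3, which amplifies Wnt signals and keeps the neighbouring hepatocytes in their pericentral state. Paracetamol kills hepatocytes around these veins. P-selectin (Selp) and von Willebrand factor (Vwf) are stored in Weibel-Palade bodies, the secretory granules of vessel endothelium, and capture leukocytes and platelets, whereas sinusoidal endothelium is rich in scavenger receptors such as stabilin-2 (Stab2).

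The 3 libraries held 82247448 (PBS), 84950721 (native MSC) and 62564254 (engineered MSC) UMIs in 10739, 11479 and 11028 barcodes, and any pair of libraries shared 34 to 41 barcode sequences. The venous barcodes were of like depth in the 3 libraries, with a median of 7536 UMIs in PBS, 7520 in native MSC and 7601 in engineered MSC. Their UMIs summed to 146733, 275707 and 1428865, so the PBS values rest on the fewest molecules.

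The genes of the rule were read in every library. Rspo3 stood at 1629 CPM (the UMIs of a gene scaled to the total of the venous barcodes) in PBS, 2209 in native MSC and 2193 in engineered MSC. Selp stood at 416, 1357 and 796 CPM, and Vwf at 286, 290.2 and 189.7 CPM, in the same order. Pecam1, an endothelial adhesion molecule, stood at 1131, 921 and 874 CPM, and Cdh5, which encodes VE-cadherin, at 1369.8, 892 and 1047 CPM. Rspo3 was detected in 192 of the 215 barcodes. The pattern of Rspo3 with Selp but no Vwf was held by 10 of 19 barcodes in PBS, 11 of 31 in native MSC and 79 of 165 in engineered MSC, and all 3 genes were detected in 4, 14 and 58. At the edge of the endothelial limit, 0, 1 and 5 venous barcodes held exactly 2 UMIs of Pecam1 and Cdh5, and 1, 5 and 12 barcodes missed the rule with 1 UMI.

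The vein label was checked against markers outside the rule. Wnt2 or Wnt9b was detected in 12 of 19 venous barcodes of PBS, 19 of 31 of native MSC and 135 of 165 of engineered MSC. At least 2 of the sinusoidal genes Stab2, Clec4g and Lyve1 were also detected in 10, 17 and 105 of them, and both features were found together in 6, 12 and 89. The lymphatic marker Prox1 occurred with Ccl21a or Mmrn1 in 1 barcode, of engineered MSC. Wnt9b was detected in 5, 12 and 88 venous barcodes, against 2 of 478, 1 of 49 and 23 of 1007 endothelial barcodes with none of Rspo3, Selp and Vwf. Wnt2 was less specific: it was detected in 11, 17 and 131 venous barcodes and in 48, 9 and 504 of those other barcodes, which were shallower. The vein label thus rests on the set and not on each barcode. Barcodes with sinusoidal genes were not set apart, so venous does not name a vessel type for them. As a group, the 23 barcodes without Rspo3 held arterial genes such as Gja5 and little Wnt2 or Wnt9b, as described further on. For these 23 too, venous is the name of the rule and not of a vessel type.

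Markers of other cell types were counted in the same barcodes. Of 8 T and NK cell markers, 0 had a UMI in PBS, 1 in native MSC and 5 in engineered MSC, with a summed level of at most 4.90 CPM. Of 8 platelet and megakaryocyte markers, 2, 3 and 5 were detected, and the platelet receptor genes Gp1bb, Gp6 and Treml1 were at 0 in the venous barcodes of all 3 libraries. The summed level of 11 macrophage and Kupffer cell markers was 736 CPM in PBS, 442 in native MSC and 122 in engineered MSC. The summed level of 15 hepatocyte transcripts went the other way, with 211, 620.2 and 3555 CPM. Haemoglobin and Alas2 transcripts summed to 0 CPM in PBS, 1516 in native MSC and 150.5 in engineered MSC, and 9 neutrophil markers to 27.3, 297 and 18.2 CPM. The part of these transcripts in the results was not tested.

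Venous endothelial barcodes were a larger share of the engineered MSC library than of the other libraries. They were 0.182% (95% interval 0.110 to 0.284) of kept barcodes in PBS, 0.304% (0.207 to 0.431) in native MSC and 1.64% (1.40 to 1.91) in engineered MSC. The intervals of PBS and native MSC overlapped, and that of engineered MSC lay above both. All barcodes past the Pecam1 and Cdh5 limit without the 3 blood and Kupffer cell genes, called endothelial barcodes here, made up 5.30%, 0.951% and 13.8% of kept barcodes. Among the 97 endothelial barcodes of native MSC, 32.0% (22.9 to 42.2) were venous, against 3.44% (2.08 to 5.31) of 553 in PBS and 11.9% (10.3 to 13.7) of 1384 in engineered MSC. The order of the libraries thus depended on the base: engineered MSC was highest per kept barcode, and native MSC was highest per endothelial barcode. These are shares of recovered cells, and the yield of each cell type from dissociation was not measured.

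The requirement of no C1qb, Clec4f or Ptprc UMI removed unequal parts. It took out 71.6% of 67 otherwise passing barcodes in PBS, 46.6% of 58 in native MSC and 44.8% of 299 in engineered MSC, and C1qb alone was present in 45, 23 and 99 of them. With up to 3 UMIs of these genes allowed, a limit chosen after seeing the data, the venous share was 0.431%, 0.451% and 2.54% of kept barcodes. After thinning every barcode to 2000 UMIs, which left out 1761, 1314 and 2073 shallower barcodes, it was 0.161%, 0.326% and 1.48%. The order of the 3 libraries was the same under these settings, as the plot of shares shows.

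**Figure D1:**
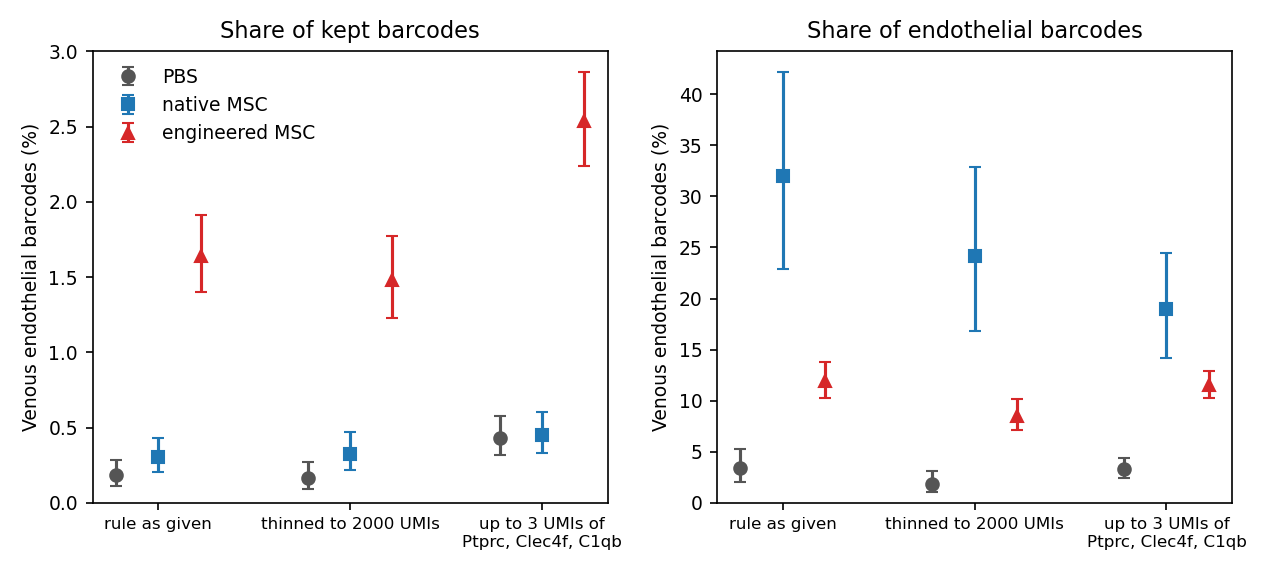
Share of venous endothelial barcodes (percent, with exact binomial 95% intervals) among kept barcodes (left) and among endothelial barcodes (right) in the PBS, native MSC and engineered MSC libraries, under the rule, after thinning to 2000 UMIs and with a relaxed limit on Ptprc, Clec4f and C1qb. Engineered MSC is highest on the left (1.64% by the rule), and native MSC is highest on the right (32.0% by the rule).

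What else set the venous barcodes apart was tested within livers. They were compared with the 1534 endothelial barcodes that had none of Rspo3, Selp and Vwf (478 in PBS, 49 in native MSC and 1007 in engineered MSC). UMIs were summed per library, and edgeR's quasi-likelihood test was fitted over all genes with the library as a block. Of 8737 genes tested, 300 (3.43%) were higher and 209 (2.39%) lower in venous barcodes at a Benjamini-Hochberg adjusted p under 0.05. Without the block, 47 genes were higher and 1 lower (329 and 196 at an unadjusted p under 0.05). Venous barcodes were deeper than the others, whose medians were 3857, 4173 and 4942 UMIs. With all barcodes thinned to 2000 UMIs, 222 genes of 4058 were higher and 177 lower.

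Genes of the central vein rose together in venous barcodes. Of the 15 genes of the central vein list outside the rule, 10 were higher and 0 lower, with a median log2 difference of 1.18 against -0.01 over all genes tested. Wnt9b, a ligand of the Wnt pathway, stood at 47.7, 131 and 144 CPM in venous barcodes (PBS, then native, then engineered MSC), and at 0.938, 3.67 and 4.80 CPM in other endothelial barcodes. Its log2 difference was 4.97 (SE 0.309, edgeR adjusted p = 9.05e-08), and the 2 populations did not overlap across libraries. Wnt2, the other main Wnt ligand of liver endothelium, stood at 136, 276 and 604 CPM against 34.2, 44.0 and 242 CPM. Its log2 difference was 1.72 (SE 0.226, edgeR adjusted p = 0.000165). The level of Wnt2 in other endothelium of engineered MSC exceeded that of the venous barcodes of PBS, so the difference for Wnt2 is a difference within each liver.

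Lhx6, a homeobox transcription factor gene, stood at 143, 207 and 279 CPM in venous barcodes and at 19.2, 7.33 and 17.1 CPM in others, a log2 difference of 3.75. Cdh13, which encodes T-cadherin, stood at 1084, 794 and 1491 CPM against 122, 114 and 313 CPM, a log2 difference of 2.69. Thbd encodes thrombomodulin, the endothelial cofactor that turns thrombin to anticoagulant use, and stood at 538, 363 and 363 CPM against 181, 91.7 and 83.2 CPM. Ptgs1, which encodes cyclooxygenase-1, rose by 1.00 on the log2 scale (edgeR adjusted p = 0.0044). Plvap, which encodes the diaphragm protein of fenestrae and caveolae, rose by 1.75, and the proteoglycan gene Bgn by 1.18. Fabp4, a fatty acid binding protein gene, passed the test but was higher in 2 of the 3 libraries only. Kit, a receptor gene often used as a mark of pericentral endothelium, did not pass the test, with a log2 difference of 0.31 (edgeR adjusted p = 0.55). The Kit value was -0.061 with thinned barcodes and -0.034 without engineered MSC.

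Sinusoidal genes moved the opposite way. Of the 15 genes of the sinusoidal list, 0 were higher and 11 lower, with a median of -0.97. Stab2, a scavenger receptor for hyaluronan, stood at 566, 602 and 1442 CPM in venous barcodes, in the same order of libraries, and at 2295, 2655 and 2897 CPM in other endothelial barcodes. Its log2 difference was -1.66 (SE 0.183, edgeR adjusted p = 3.34e-05). Clec4g, a lectin gene of sinusoidal endothelium, stood at 170.4, 308 and 722 CPM against 700.1, 1261 and 1744 CPM, a log2 difference of -1.68. Fcgr2b, the inhibitory receptor for antibody complexes, fell by 1.41, the scavenging nuclease gene Dnase1l3 fell by 1.37, and the hyaluronan receptor gene Lyve1 fell by 1.14 on the log2 scale. These genes were thus lower but not absent in venous barcodes. Of the same list, 7 fell with up to 3 UMIs of Ptprc, Clec4f and C1qb allowed, and none passed edgeR without the block.

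Genes with the largest differences outside these lists included Pcdh9, a protocadherin gene, with a log2 difference of 7.83 (SE 0.433, edgeR adjusted p = 2.37e-08) and 47.7, 192 and 119.7 CPM in venous barcodes. Samd5 rose by 6.06 and stood at 164, 199 and 122 CPM there. Bmp4, a ligand of the BMP pathway, stood at 109, 116 and 71.4 CPM in venous barcodes against 0.938, 0 and 1.42 CPM in the others. Its log2 difference was 5.99 (SE 0.409, edgeR adjusted p = 2.15e-07). Nuak1, a kinase gene, rose by 4.42, Chn2, a regulator of Rac, by 4.44, and Fbln2, which encodes the matrix protein fibulin-2, by 4.16. For Pcdh9 and Samd5 the other endothelial barcodes held from 0 to 4.69 CPM in any library, so their folds rest on few UMIs in the compared population.

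Some genes of vessel tone and clotting, and 6 of 8 genes that respond to blood flow, were higher in venous barcodes. Edn1, the precursor of the constrictor peptide endothelin-1, stood at 484, 345 and 279 CPM in PBS, native MSC and engineered MSC against 35.2, 55.0 and 5.51 CPM, a log2 difference of 4.33 (SE 0.355, edgeR adjusted p = 1.47e-06). The endothelin receptor gene Ednrb rose by 1.49, and Nos3, the endothelial nitric oxide synthase gene, by 0.80. In the vascular tone list 5 of 13 genes rose and 1 fell. In the clotting list 4 of 14 rose and 1 fell: Entpd1, which removes the platelet agonist ADP, rose by 4.14, and Tfpi, an inhibitor of the tissue factor pathway, fell by 0.65. The 6 flow-responsive genes that rose included the transcription factor genes Klf4 (1.04) and Klf2 (0.57). Without the engineered MSC library 1 of 7 flow-responsive genes passed, with edgeR on the remaining 2 libraries.

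Of 11 leukocyte adhesion genes tested, 4 rose and 0 fell, and the others did not pass. Vcam1, a ligand for leukocyte integrins, stood at 402, 316 and 305 CPM against 77.4, 62.3 and 105 CPM, a log2 difference of 1.96 (SE 0.199, edgeR adjusted p = 1.32e-05). Sele, which encodes E-selectin, stood at 225, 141 and 48.3 CPM against 27.7, 47.7 and 9.42 CPM, a log2 difference of 2.43 (SE 0.269, edgeR adjusted p = 3.48e-05). Jam2, a junctional adhesion molecule gene, rose by 1.68 and Icam1, another integrin ligand, by 0.96. Among chemokine genes and scavengers, Ackr3, a scavenging receptor for CXCL12, rose by 1.95 and Cxcl9, an attractant of T cells, fell by 1.69. Ccl2 passed as well, and its level in native MSC rested on 1 barcode, described further on.

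**Figure D2:**
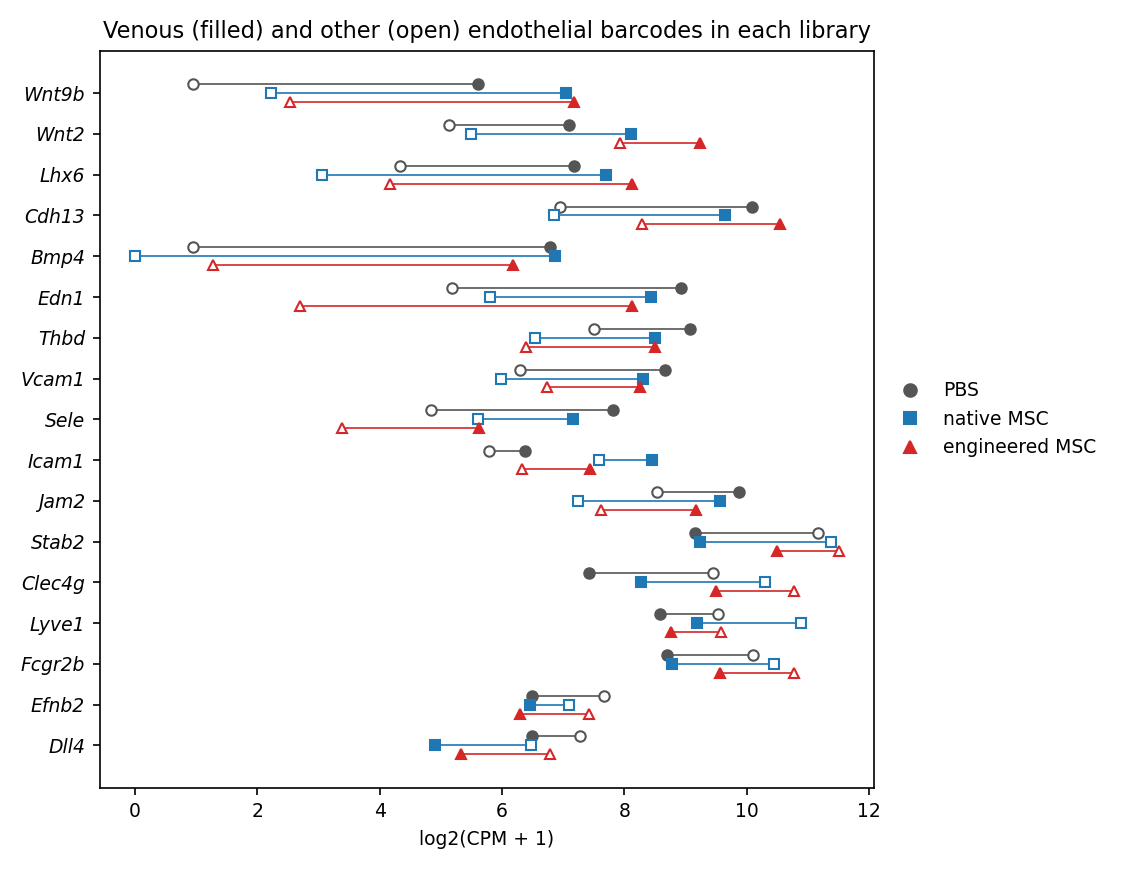
Levels of 17 genes, as log2(CPM + 1), in venous (filled) and other (open) endothelial barcodes of each library, with a line joining the 2 populations of 1 liver. The genes from Wnt9b to Jam2 are higher in the venous barcodes of all 3 livers, and those from Stab2 to Dll4 are lower in all 3.

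Genes of vessel growth and arterial identity were split. In the VEGF and angiopoietin list 2 of 13 rose and 4 fell. Kdr, the main VEGF receptor gene, fell by 0.79, Esm1, a gene of sprouting endothelium, fell by 1.84, and Angpt2, an angiopoietin gene, fell by 1.59. The angiopoietin receptor gene Tek rose by 0.65. In the arterial and portal list 5 of 11 rose and 2 fell. Jag1, a Notch ligand gene, rose by 1.91, the adhesion receptor gene Adgrg6 by 1.61 and the connexin gene Gja4 by 0.67, while Efnb2, which encodes the arterial marker ephrin-B2, fell by 1.03 and Dll4, another Notch ligand gene, fell by 1.33. With thinned barcodes, 1 of 7 of this list rose and 1 fell. Adgrg6 was highest in the venous barcodes without Rspo3, described further on. In those with Rspo3 it stood at 0, 13.4 and 10.0 CPM in PBS, native MSC and engineered MSC. In other endothelial barcodes it stood at 20.6, 0 and 51.5 CPM, so its rise was not shared by the venous barcodes with Rspo3 in PBS and engineered MSC.

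Stress and interferon genes differed in how they behaved. Of 15 immediate early and dissociation genes, 7 rose and 0 fell. Jun stood at 647, 1149.8 and 949.7 CPM in the venous barcodes of the 3 libraries against 362, 587 and 378 CPM, a log2 difference of 1.08. Fos rose by 1.05. Enzymatic dissociation is known to induce such genes, and its part here was not tested. None of 17 type I interferon response genes passed edgeR's test. At an unadjusted p under 0.05, 4 were lower and 0 higher, and DESeq2 called 0. None of 14 interferon-gamma response genes passed edgeR's test either, with 1 higher at an unadjusted p under 0.05 and 0 called by DESeq2. Among 14 hepatocyte transcripts 3 were lower, and 4 of 4 haemoglobin genes tested were lower.

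The native MSC library had the fewest other endothelial barcodes, and B-cell transcripts were high among them. The summed level of 7 B and plasma cell markers was 656 CPM in those 49 barcodes, against 53.0 and 122 CPM in the other endothelial barcodes of PBS and engineered MSC and 10.9 CPM in the venous barcodes of native MSC. Bank1 (-2.82) and Cd74 (-2.34) were among the genes called lower. Without the native MSC library, edgeR called 358 genes higher and 223 lower, and in the lists 10 of 15 central vein genes rose and 1 (Ackr1, a chemokine-binding receptor gene of venules, named after its value was seen) fell, while 10 of 15 sinusoidal genes fell and 0 rose.

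The venous barcodes were not uniform. The 23 without Rspo3, which entered by Selp and Vwf together, were 4 of 19 in PBS (21.1%, 6.05 to 45.6), 5 of 31 in native MSC (16.1%, 5.45 to 33.7) and 14 of 165 in engineered MSC (8.48%, 4.72 to 13.8). These intervals overlapped. With under 10 such barcodes in 2 of the libraries, no test was made between them and the 192 with Rspo3, and levels are given as a description.

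Gja5, which encodes the arterial connexin-40, was found in the Rspo3-negative venous barcodes and in no other venous barcode. It stood at 647 CPM (19 UMIs) in PBS, 39.1 (2 UMIs) in native MSC and 293 (39 UMIs) in engineered MSC where Rspo3 was not detected, and at 0 in the 117382, 224580 and 1295978 UMIs of the barcodes with Rspo3. It was detected in 4 of 4 such barcodes in PBS, 1 of 5 in native MSC and 10 of 14 in engineered MSC. Adgrg6 stood at 613, 58.7 and 1181 CPM without Rspo3 and at 0, 13.4 and 10.0 CPM with it. The matrix gene Ltbp4 stood at 545, 450 and 579 CPM against 51.1, 80.1 and 175 CPM, and Efnb2 at 170.4, 293 and 436 CPM against 68.2, 40.1 and 40.9 CPM. Mgp, an inhibitor of calcification and BMP signals, stood at 1022, 939 and 241 CPM against 0, 40.1 and 0.772 CPM, with all 30 UMIs of PBS in 1 barcode and 38 of 57 of native MSC in another. Clu, which encodes clusterin, was also higher without Rspo3 in each library. Gja4, another connexin gene of the arterial list, did not share this order: it stood at 784, 176 and 150.5 CPM without Rspo3 and at 170.4, 116 and 211 CPM with it.

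Central vein genes had the converse pattern. Wnt2 stood at 170.4, 338 and 663 CPM in the venous barcodes with Rspo3 and at 0, 0 and 30.1 CPM in those without it. Wnt9b stood at 59.6, 156 and 159 CPM with Rspo3, and at 0, 19.6 (1 UMI) and 0 CPM without it. Lhx6 stood at 179, 249 and 307 CPM against 0, 19.6 and 0 CPM. Thbd, at 630.4, 419 and 379 CPM, exceeded 170.4, 117 and 203 CPM. Kit did not show this order in native MSC, where it stood at 191 CPM with Rspo3 and 215 CPM without it. The sinusoidal gene Stab2 differed less, at 647, 610.0 and 1462 CPM with Rspo3 and 238, 567 and 1242 CPM without it. Clec4g and Lyve1 had no common order, as both were lower with Rspo3 in native MSC and higher with it in PBS and engineered MSC. Clec4g stood at 187, 254 and 732 CPM with Rspo3 and 102, 548 and 625 CPM without it. Lyve1 stood at 477, 570 and 434 CPM with Rspo3 and 0, 645 and 399 CPM without it.

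**Figure D3:**
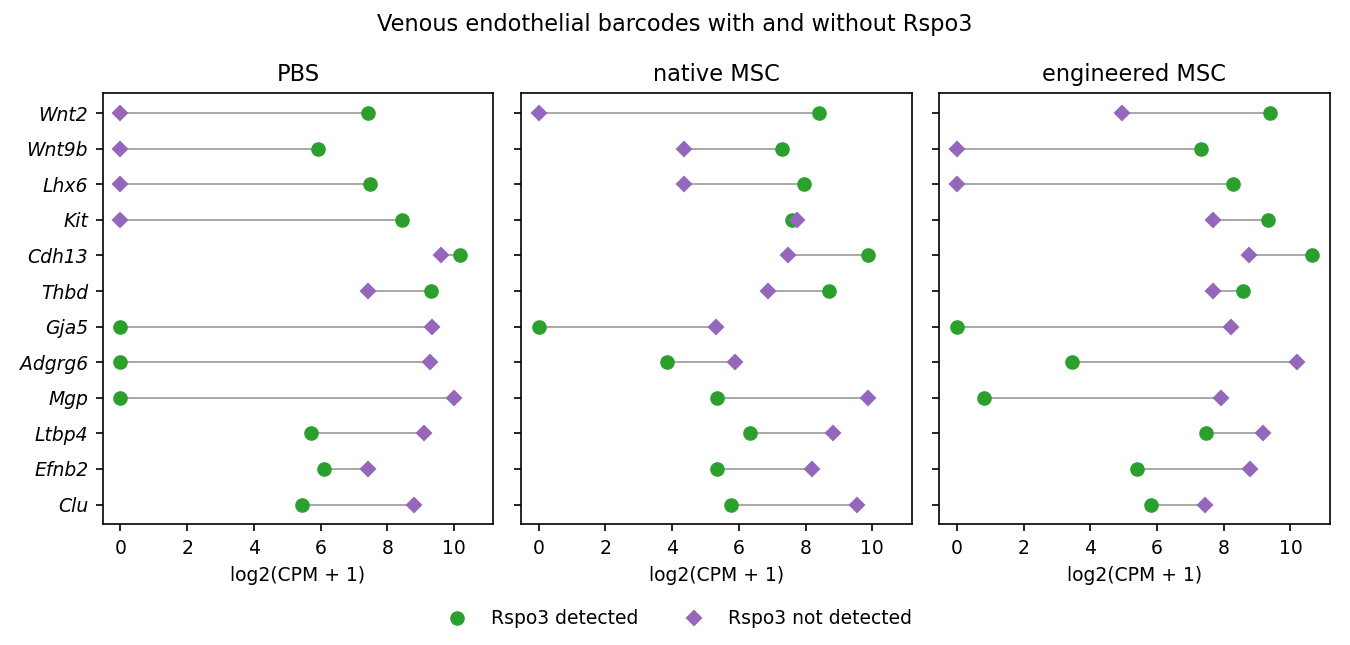
Levels of 12 genes, as log2(CPM + 1), in venous endothelial barcodes with Rspo3 (circles; 15, 26 and 151 barcodes) and without it (diamonds; 4, 5 and 14 barcodes) in the PBS, native MSC and engineered MSC libraries. Wnt2, Wnt9b and Lhx6 are higher with Rspo3 and Gja5, Adgrg6 and Mgp higher without it in each library.

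The venous barcodes were next compared between livers. The question was how this endothelium differed 4 days after infusion of native or engineered MSCs or PBS. A gene was compared if the 2 libraries together held 20 or more of its UMIs and its mean reached 50 CPM, and a difference of at least 2-fold was counted. The 3 comparisons share libraries and are set side by side, with no test.

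Of 4197 genes compared between engineered MSC and PBS, 358 (8.53%) were at least 2-fold higher and 367 (8.74%) at least 2-fold lower, with a median log2 ratio of -0.07. Summed over all 16 interferon-gamma response genes of the list, the level was 1328 CPM in engineered MSC and 423 CPM in PBS. Of these 16 genes, 6 had enough UMIs to be compared, and the 6 were at least 2-fold higher, with a median log2 ratio of 1.57. A gene could reach that minimum through its UMIs in engineered MSC alone (Gbp7 and Irgm1 had 4 UMIs each in PBS), so these counts and medians are a description of the genes compared and not of the whole list. Iigp1, an immunity-related GTPase gene, stood at 388 CPM in engineered MSC and 68.2 in PBS, 5.69-fold higher (95% interval 3.07 to 11.9). Gbp7, a guanylate-binding protein gene, stood at 106 against 27.3 CPM, 3.90-fold higher (1.49 to 14.5), and Irgm1 at 81.9 against 27.3 CPM, 3.00-fold higher (1.14 to 11.2). The 18 type I interferon response genes summed to 1858 against 1070.0 CPM. Of the 9 compared, 4 were at least 2-fold higher and 9 were above a ratio of 1, with a median of 0.85. Ifi44 stood at 160.3 against 27.3 CPM, 5.88-fold higher (2.27 to 21.8), while Rsad2, which encodes the antiviral enzyme viperin, stood at 101 against 95.4 CPM. The 11 MHC class I genes summed to 4047 against 2085 CPM, and 4 of the 8 compared were at least 2-fold higher, with a median of 1.02. H2-K1, a class I heavy chain gene, stood at 1163 against 532 CPM, 2.19-fold higher (1.74 to 2.78).

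These differences were seen in other endothelium too. The median over the same genes in the other endothelial barcodes was 1.39 for the interferon-gamma list, 1.79 for the type I list and 0.98 for the MHC class I list, and that over all genes there was -0.04. No value in this comparison shows the interferon difference as particular to the venous barcodes.

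Promoters of these genes were searched for the core of the interferon-stimulated response element, the site bound by IRF and STAT factors. The motif, which is GAAA, any 2 bases and GAAA, was sought on both strands in the 250 bases before the start of each gene, in RefSeq sequences of build GRCm38.p6. Overlapping matches were counted. It occurred in 5 of the 8 type I interferon promoters found in RefSeq, in 2 of 4 interferon-gamma promoters, in 3 of 8 MHC class I promoters and in 0 of 6 glycolysis promoters, against 3.04% of 27025 promoters. A match is a description of the letters and not of binding, and these genes include known interferon targets. Shown here, because they carry the motif and were at least 2-fold higher in engineered MSC than in PBS, are windows of the promoters of Gbp7 (chr3:142530243-142530312, plus strand), H2-T23 (chr17:36032796-36032865, minus strand), Irgm1 (chr11:48871421-48871490, minus strand) and Stat2 (chr10:128270248-128270305, plus strand). Each is written 5′ to 3′ along the gene's strand, and capitals mark the bases of the motif or of its reverse complement.
Gbp7: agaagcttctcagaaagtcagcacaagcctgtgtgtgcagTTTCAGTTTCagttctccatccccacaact
H2-T23: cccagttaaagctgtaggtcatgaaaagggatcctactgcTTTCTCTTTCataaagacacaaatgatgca
Irgm1: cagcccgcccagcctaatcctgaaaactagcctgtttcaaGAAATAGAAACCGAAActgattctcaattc
Stat2: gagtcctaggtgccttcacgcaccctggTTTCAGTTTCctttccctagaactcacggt

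The motif begins 53 bases before the start of Gbp7, 124 before that of H2-T23 and 222 before that of Stat2. Irgm1 holds 2 overlapping matches, which begin 30 and 24 bases before its start. H2-T23, a nonclassical class I gene, stood at 167 CPM in engineered MSC and 47.7 in PBS, 3.51-fold higher (1.68 to 8.82). Stat2, a transcription factor gene of the type I pathway, stood at 86.1 against 40.9 CPM, a ratio of 2.11 whose interval (0.940 to 5.85) includes 1.

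Wnt2, Wnt9b and some other central vein genes were higher in the venous barcodes of engineered MSC than in those of PBS. Of 14 genes of the central vein list, 4 were at least 2-fold higher and 0 at least 2-fold lower, with a median log2 ratio of 0.81. Wnt2 stood at 604 CPM in engineered MSC and 136 CPM in PBS, 4.43-fold higher (2.85 to 7.29), and Wnt9b at 144 against 47.7 CPM, 3.02-fold higher (1.44 to 7.61). In other endothelium Wnt2 stood at 242 CPM in engineered MSC and 34.2 CPM in PBS, so its difference was not limited to the venous barcodes. Ptgs1 was 2.79-fold higher (1.86 to 4.39) and Kit 2.15-fold higher (1.57 to 3.02). Of 15 sinusoidal genes 5 were at least 2-fold higher and 1 lower, with a median of 0.85: Clec4g was 4.24-fold higher (2.86 to 6.58) and Stab2 2.55-fold higher (2.05 to 3.21). Venous and sinusoidal genes were thus higher together in this liver. The medians in other endothelium over the same genes were 0.36 for the central vein list and 0.56 for the sinusoidal list.

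The 13 glycolysis and hypoxia genes of the list summed to 899 CPM in engineered MSC and 2426 CPM in PBS. Of 6 compared, 5 were at least 2-fold lower than in PBS, with a median log2 ratio of -1.56, and with no minimum of UMIs the median was -0.78. Pgk1 stood at 81.2 CPM in engineered MSC and 341 in PBS, a ratio of 0.238 (0.170 to 0.339). Pkm stood at 170.8 against 511 CPM, a ratio of 0.334 (0.257 to 0.439), and Ldha, which makes lactate, at 139 against 402 CPM, a ratio of 0.345 (0.256 to 0.469). Basement membrane genes had a median of -0.91, with Col4a1 at 435 against 1077 CPM and Col4a2 at 226 against 572 CPM. These 2 encode the chains of type IV collagen of vessel walls. The medians over the same genes in other endothelium were -1.55 for glycolysis and -0.91 for basement membrane, close to those of the venous barcodes.

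Arterial and portal genes were lower in engineered MSC than in PBS. Of 11 compared, 5 were at least 2-fold lower and 0 higher, with a median log2 ratio of -0.88, against -0.10 over the same genes in other endothelium. Gja5 stood at 27.3 against 129 CPM, Jag1 at 66.5 against 149.9 CPM and Dll4 at 39.2 against 88.6 CPM. The share of venous barcodes without Rspo3, which held the Gja5 transcripts, was 8.48% in engineered MSC and 21.1% in PBS, and its part in these ratios was not tested. Mgp, with a ratio of 0.113, rested on 1 PBS barcode.

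Of 9 leukocyte adhesion genes compared, 1 was at least 2-fold higher and 1 lower in engineered MSC than in PBS, and 8 lay below a ratio of 1. Their median log2 ratio was -0.34, against -0.51 over the same genes in other endothelium. Sele stood at 48.3 CPM in engineered MSC and 225 in PBS, a ratio of 0.215 (0.140 to 0.336), with 18 of the 33 PBS UMIs in 1 barcode. In PBS, native MSC and engineered MSC, Sele stood at 647, 333 and 90.3 CPM in venous barcodes without Rspo3. In those with Rspo3 it stood at 119, 98.0 and 44.0 CPM. The part of the unequal shares without Rspo3 in the ratios of Sele between libraries was not tested. Icam1 stood at 173 against 81.8 CPM, 2.11-fold higher (1.19 to 4.15). Vcam1 stood at 305 against 402 CPM, with an interval of the ratio (0.577 to 1.01) that includes 1. Hgf, the hepatocyte growth factor gene, stood at 181 against 729 CPM, a ratio of 0.249 (0.198 to 0.314), with 65 of its 107 PBS UMIs in 1 barcode.

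The genes furthest above PBS by their interval included Cd300lg, an endothelial receptor gene, at 276 against 20.4 CPM, 13.5-fold higher (4.59 to 65.8). Gas6, a ligand of the TAM receptors that take part in the clearance of dying cells, stood at 246 against 20.4 CPM, a log2 ratio of 3.59 (ratio interval 4.08 to 58.5). Prelp, a matrix proteoglycan gene, had 158 UMIs in engineered MSC and 0 in PBS, at least 5.41-fold higher if PBS is set at 3 counts. Ccl21a, a lymphatic chemokine gene, met the same rule, but its 1170 UMIs all came from 1 engineered MSC barcode. Among the genes furthest below, Emp1, a membrane protein gene, stood at 33.6 against 307 CPM, with a ratio of 0.110 (0.0714 to 0.168). Ch25h, which encodes cholesterol 25-hydroxylase, stood at 15.4 against 170.4 CPM, with 16 of 25 PBS UMIs in 1 barcode. The haem-degrading enzyme gene Hmox1 stood at 141 against 927 CPM, with 73 of 136 PBS UMIs in 1 barcode.

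Hepatocyte transcripts moved with this comparison. All 11 compared were at least 2-fold higher in the venous barcodes of engineered MSC, with a median log2 ratio of 4.19, and 3 of 3 macrophage markers compared were at least 2-fold lower. In other endothelium the hepatocyte median was 3.53. The part of such transcripts in the ratios was not tested.

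In native MSC against PBS, the larger part of the immediate early and NF-kappaB feedback genes lay above a ratio of 1, and several chemokine genes were higher. Of 4082 genes compared, 258 (6.32%) were at least 2-fold higher and 354 (8.67%) lower, with a median log2 ratio of -0.11. Icam1 stood at 348 CPM in native MSC and 81.8 in PBS, 4.26-fold higher (2.33 to 8.53), with 39 of 96 UMIs in 1 barcode. The neutrophil attractant gene Cxcl2 stood at 185 against 54.5 CPM, 3.39-fold higher (1.60 to 8.28). Cxcl10, an interferon-inducible chemokine gene, stood at 199 against 75.0 CPM, 2.66-fold higher (1.38 to 5.64). Ccl2, the monocyte attractant gene, was 8.91-fold higher, but 180 of its 201 UMIs in native MSC came from 1 barcode. Of 14 immediate early genes 5 were at least 2-fold higher and 1 lower, with a median of 0.82 and 11 above a ratio of 1, among them Ier3 at 464 against 102 CPM and Zfp36 at 686 against 170.4 CPM. Of 7 NF-kappaB feedback genes 6 were above a ratio of 1, 2 of them at least 2-fold. Their median was 0.87 (0.58 over the list with no minimum of UMIs). In other endothelium the medians over the same genes were 0.71 for the immediate early list and 0.92 for the NF-kappaB list. That of the chemokine list was 1.23 there and 1.41 in the venous barcodes. These differences were thus not limited to the venous barcodes. Cxcl2 stood at 2754 CPM in all other kept barcodes of native MSC and at 895 CPM in those of PBS, values above the venous ones.

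Central vein genes differed less between native MSC and PBS. Of 14, 2 were at least 2-fold higher: Wnt2 at 276 against 136 CPM, 2.02-fold (1.22 to 3.50), and Wnt9b at 131 against 47.7 CPM, 2.74-fold (1.20 to 7.29). Of 11 arterial and portal genes 6 were at least 2-fold lower, with a median of -1.21, against -0.75 over the same genes in other endothelium. Of 3 type I interferon genes with enough UMIs, 1 was at least 2-fold higher, and the median was -0.16. The 16 interferon-gamma response genes summed to 907 CPM in native MSC and 423 CPM in PBS, and 2 had enough UMIs to be compared. In other endothelium they summed to 458 and 481 CPM. Iigp1, of this list, had a log2 ratio of 2.32 (ratio interval 2.60 to 10.8), with 26 of its 94 UMIs in 1 barcode. Glycolysis genes had a median of -0.99 (-0.59 with no minimum of UMIs), with 2 of 6 at least 2-fold lower. Over the same genes in other endothelium the median was -0.44. Haemoglobin transcripts were present in native MSC and at 0 in PBS.

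Of 4083 genes compared between engineered and native MSC, 227 (5.56%) were at least 2-fold higher and 151 (3.7%) lower, with a median log2 ratio of 0.06. The 18 type I interferon genes summed to 1858 CPM in engineered MSC and 827 CPM in native MSC. Of the 8 with enough UMIs, 5 were at least 2-fold higher, 8 were above a ratio of 1, and the median was 1.77. Here too a gene could be compared through engineered MSC alone: native MSC held 7 UMIs of Ifit2 and 5 of Oasl2. Ifit2 stood at 117 CPM in engineered MSC and 25.4 in native MSC, 4.60-fold higher (2.19 to 11.6). Oasl2, an antiviral oligoadenylate synthetase-like gene, stood at 99.4 against 18.1 CPM, 5.48-fold higher (2.29 to 17.1). Ifi44 stood at 160.3 against 29.0 CPM, 5.52-fold higher (2.76 to 12.9). Rsad2 had 144 UMIs against 1, a ratio of 27.8 with an interval from 4.91 to 1105. The median over the same list in other endothelium was 1.88. Of 7 interferon-gamma response genes compared, 2 were at least 2-fold higher in engineered MSC, with a median of 0.55. Over the same genes in other endothelium the median was 1.28.

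Of 6 chemokine and scavenger genes compared between the engineered and native MSC libraries, 1 was at least 2-fold higher and 2 lower. Of 9 clotting genes, 0 were at least 2-fold higher and 1, Plat, lower. Cxcl2 stood at 9.80 CPM in engineered MSC and 185 in native MSC, a ratio of 0.053 (0.0271 to 0.0972). In other endothelium Cxcl2 stood at 7.29 CPM in engineered MSC and 425 in native MSC, so its difference was not limited to the venous barcodes. Plat, which encodes tissue plasminogen activator, stood at 14.0 against 159.6 CPM, a ratio of 0.0877 (0.0490 to 0.152), with 19 of the 44 native MSC UMIs in 1 barcode. Sele stood at 48.3 against 141 CPM, a ratio of 0.341 (0.227 to 0.519). Kit stood at 601 against 196 CPM, 3.07-fold higher (2.33 to 4.12), and Wnt2 was 2.19-fold higher (1.73 to 2.81), while for Wnt9b the interval of the ratio (0.772 to 1.62) included 1. Glycolysis genes had a median of -0.59, with 0 of 5 at least 2-fold lower. Wnt2 therefore had separate levels in the 3 livers, lowest in PBS and highest in engineered MSC, and Wnt9b did not differ beyond counting error between the 2 livers given MSCs.

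**Figure D4:**
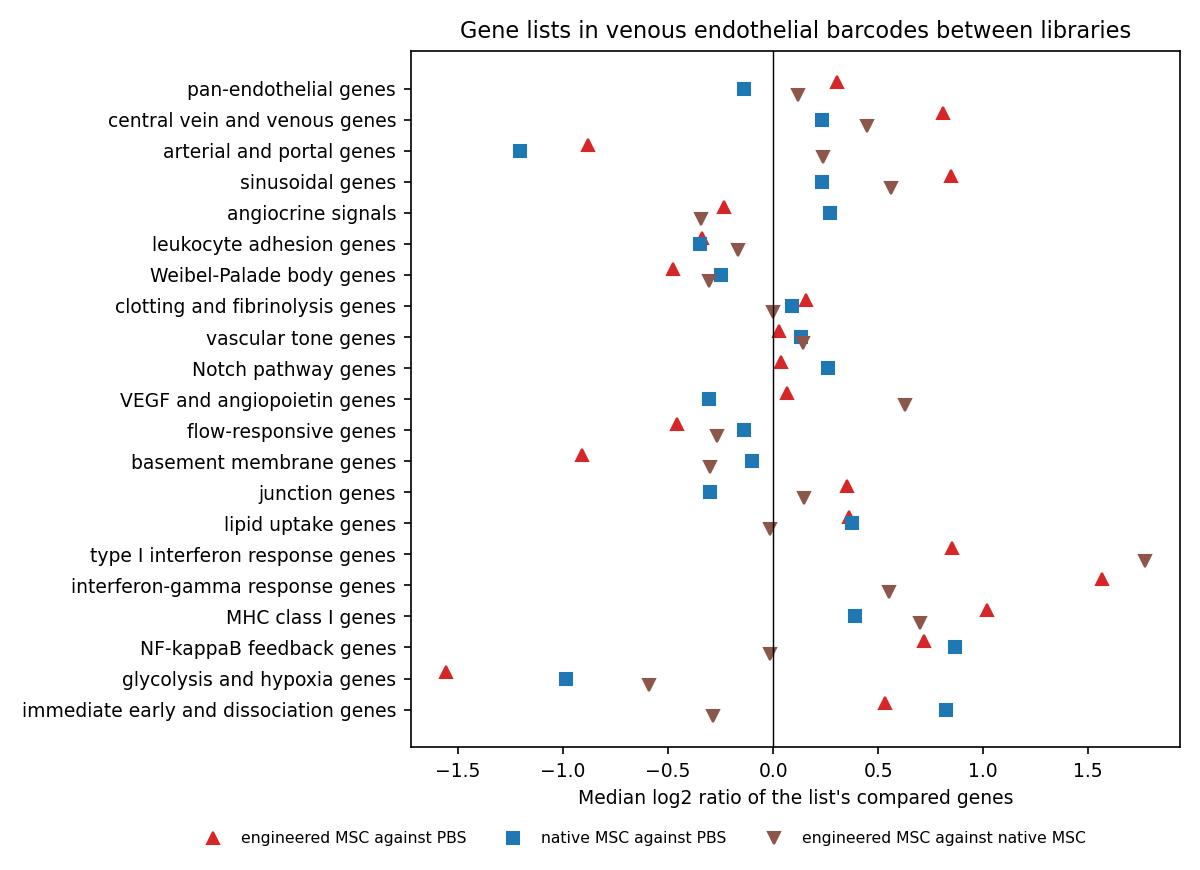
Median log2 ratio of endothelial gene lists in venous endothelial barcodes, for engineered MSC against PBS (upward triangles), native MSC against PBS (squares) and engineered against native MSC (downward triangles). A list is drawn if at least 5 of its genes were compared in engineered MSC against PBS. Its other comparisons are drawn only where they also reach 5 genes. The chemokine list, with 4 genes compared in engineered MSC against PBS, and lists of other cell types are not drawn. Among the lists drawn, glycolysis genes lie lowest in engineered MSC against PBS (-1.56) and the interferon-gamma list lies highest in it (1.57). The type I list lies highest in engineered against native MSC (1.77). These medians cover only the genes with enough UMIs to be compared. With no minimum of UMIs they are -0.78, 1.40 and 1.56, and arterial and portal genes lie at -1.02 in engineered MSC against PBS.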

How the data were processed

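Livers were dissociated and libraries made with 10x 3′ v3.1 chemistry, per the labels' protocols. The authors deposited matrices of raw counts (UMIs per gene and barcode). Cell Ranger 7.1.0 and build GRCm39 are named in the submitters' processing notes. Barcodes were filtered and chosen by the rule in the report, and no doublets or free RNA were removed in the main values. UMIs were summed per library and population and scaled to CPM. edgeR 4.0.16 (quasi-likelihood, TMM, filterByExpr) compared venous with other endothelial barcodes of the same libraries. Both populations come from the same liver, so the library is a block, with 2 residual degrees of freedom. The spread is between 3 livers given different infusions. Between libraries, 0 counts were set to 0.5 in log2 ratios. Named genes were the 12 with the largest differences in each direction against other endothelium, the 6 with the furthest interval bound in each direction between libraries, and up to 4 per list. Adgrg6, Clu, Ltbp4, Mgp and Sele were read in the Rspo3 split after earlier results were seen. 1 gene is not reported here. Scripts were tested on simulated data. Members, lists and rules were chosen with earlier results of these data known. Alternatives used DESeq2 1.42.0, Scrublet in scanpy 1.11.5 (0.8% of barcodes per 1000 removed), a minimum of 500 genes, a mitochondrial limit of 10%, at least 3 endothelial UMIs, thinning, other scalings and filters, and each library left out. Intervals are at 95%.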

Additional observations from a re-analysis of the deposited data

How the results depend on the processing

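With up to 3 UMIs of Ptprc, Clec4f and C1qb allowed (chosen after seeing the data), the venous share of kept barcodes was 0.431% in PBS, 0.451% in native MSC and 2.54% in engineered MSC, and that of endothelial barcodes in native MSC was 18.9%. With thinned barcodes the share of endothelial barcodes was 1.86% in PBS and 8.53% in engineered MSC. Against other endothelium (300 higher and 209 lower), edgeR without the replicate block called 47 higher and 1 lower, and 329 and 196 at an unadjusted p under 0.05. DESeq2 called 184 and 78, and no filter on low counts gave 388 lower, over more genes. The relaxed limit on Ptprc, Clec4f and C1qb gave 546 lower. Leaving out each library gave 120 to 358 higher and 86 to 223 lower, both lowest without engineered MSC, where fewer genes were tested. With no pairing by library, 19 of 78 named genes kept their direction and their side of the threshold. The log2 difference of Kit was -0.061 with thinned barcodes, -0.034 without engineered MSC and 0.56 without native MSC.

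With no minimum of UMIs, which adds genes with few counts, the genes at least 2-fold higher and lower were 2108 and 4499 in engineered MSC against PBS, 2266 and 2107 in native MSC against PBS, and 1932 and 3784 in engineered against native MSC. With the relaxed limit, 241 were lower in engineered MSC against PBS and 91 against native MSC. Removing doublets turned Ccl21a to -3.24 (engineered MSC against PBS) and -2.38 (against native MSC), since its 1 barcode was removed, and in native MSC against PBS turned Cytl1 to -0.86 and Fn1 to -0.012. The relaxed limit turned Spp1 to 0.47 (engineered MSC against PBS), Clu to 0.15 (against native MSC) and, in native MSC against PBS, Ackr3 to 0.30, Ccn2 to -1.14, Fn1 to -0.029 and Nts to 0.94 on the log2 scale. Where no cause is given, the cause was not tested. Of 579 list medians recomputed, 563 lay between the medians of their genes' lower and upper interval bounds, and 0 of those at least 1 in size on the log2 scale changed sign. Other settings for barcodes with and without Rspo3 were not run, since no test was made there. The 19 PBS barcodes limit every comparison with PBS.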

Other observations

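Vwf also divided the venous barcodes, in values read after other results were seen and not tested. Stab2 was lower where Vwf was detected in each library, at 134.7 CPM against 859 in PBS, 334 against 1156 in native MSC and 1017 against 1828 in engineered MSC. The sinusoidal gene Lyve1 followed Stab2, at 0 against 641 CPM, 388 against 989 and 328 against 525. Clec4g did not: it was lower with Vwf in PBS (50.5 against 252 CPM) and engineered MSC (528 against 899 CPM). In native MSC Clec4g was higher with Vwf, at 350 against 222 CPM. Bmp4 was higher where Vwf was detected, at 269 against 0 CPM, 145 against 55.6 and 126 against 21.4. Fbln2 followed the same order, at 404 against 34.4 CPM, 415 against 188.9 and 254 against 46.8. Edn1 was higher with Vwf in PBS (976 against 149 CPM) and engineered MSC (486 against 90.9 CPM), and lower with it in native MSC (296 against 445 CPM). The Rspo3-negative venous barcodes all hold Vwf by the rule, so both splits share barcodes.

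A single engineered MSC barcode held 1170 UMIs of Ccl21a, and no other venous barcode held any. Ccl21a and Prox1 or Mmrn1 mark lymphatic endothelium.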
